A study of Homo sapiens with 4 samples.

Results

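Messages for 10 proteins of the cornified envelope were followed in cells that the sample labels give as KYSE-150, an established line of human esophageal squamous carcinoma, with NSUN6 silenced by a stably expressed hairpin or left normal. For the silenced cells the deposited table itself holds other names, given below, and their identity is unsettled. NSUN6 is an RNA methyltransferase that makes 5-methylcytosine. The genes were SPRR1A, SPRR1B, SPRR2A, SPRR2D, SPRR3, IVL, TGM1, EVPL, PPL and CNFN, taken by name, and all 10 were found among the 17064 rows of the deposited table. They were chosen by name with their FPKM in these 4 libraries known, so their differences are a description with no test. Input and polyribosome RNA were each sequenced once from control and once from knockdown cells, and so no difference below has a replicate check. Control cells had normal NSUN6 per the labels, all cells received cycloheximide, which halts elongating ribosomes, and input is the poly(A) RNA of the lysate before ribosome-bound RNA was spun down through sucrose. Values are FPKM, fragments scaled to transcript length and library size, and the read depth behind them is unknown.

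The cornified envelope is the insoluble protein layer that stratified squamous epithelium lays down beneath the plasma membrane of cells above the basal layer. Involucrin and the plakins envoplakin and periplakin form an early scaffold, transglutaminases cross-link it, and small proline-rich (SPRR) proteins are then joined on as bridges between other envelope proteins. The SPRR genes and IVL lie together in the epidermal differentiation complex on chromosome 1, whereas the other members lie elsewhere. The inner, suprabasal layers of esophageal epithelium are known for high SPRR3 and involucrin.

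Some facts of the whole data set bear on every value. The table ends with another set of column names, which gives the control columns as K150 with a hairpin against GFP and the other 2 columns as K30 and shMettl1, input before polyribosome. The header gives those 2 columns as knockdown of NSUN6, polyribosome before input, and matches the sample labels. The header was followed, and these libraries are called knockdown-labelled. Whether they come from the same cell line as the control libraries, and from which hairpin, cannot be settled from the table. NSUN6 was at 8.85 FPKM in control input, 10.13 in control polyribosome, 3.83 in knockdown-labelled input and 0.38 in knockdown-labelled polyribosome RNA. All 14 squamous markers were in the table and summed to 1930 to 2432 FPKM in control and 813 to 1047 in knockdown-labelled libraries. Of all genes averaging 5 FPKM or more, 13.2% were at least 2-fold higher and 14.4% lower in knockdown-labelled input. Of the 13 squamous markers at that mean, 6 exceeded 2-fold upward, among them SOX2 and, as counted in this list, EPCAM, and 4 downward, with a median of 0.21. KRT5, the basal squamous keratin, was among the latter and was at 905.66 and 1162.19 FPKM in the control libraries and at 0.45 and 0.70 in the knockdown-labelled input and polyribosome libraries. The summed level of 13 markers of simple and glandular epithelium was 3487 to 4546 FPKM in control and 6673 to 7745 in knockdown-labelled libraries, with TFF1 at 0 in all 4. Of the 8 at that mean, 4 exceeded 2-fold upward in knockdown-labelled input and 1 downward (MUC1, 12.25 and 3.53 FPKM). KRT19 was at 0.07 FPKM in control and 1487.69 in knockdown-labelled input, and AGR2 at 0.25 and 1093.26. KRT8, at 1503.32 and 1941.21, and KRT18, at 1615.8 and 1756.03, were within 2-fold. Of the markers of other cell types, 9 of 11 for fibroblasts, 7 of 7 for endothelium and 6 of 9 for immune cells were under 1 FPKM in every library. Their summed levels were 12.83 to 13.58, 0.67 to 0.91 and 72.25 to 74.85 FPKM in control and 4.20 to 5.40, 1.45 to 1.60 and 11.59 to 13.05 FPKM in knockdown-labelled libraries, with THY1 of the fibroblast list at 0 in all 4. Most of the immune sum in control was CD68, at 71.23 FPKM in control input and 5.90 in knockdown-labelled input. Most of the fibroblast sum in control was ACTA2, at 10.57 and 2.90 FPKM, so neither sum describes its list. The part of these differences between the cells, of the closing column names, and of the markers in the results below was not tested. In such bulk RNA, fewer cells of a type and less RNA per cell cannot be told apart.

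Letters of 5 SPRR and IVL promoters are shown because these genes sit in 1 segment and yet fell into groups that were high and groups that were near 0. Promoter sequences in the RefSeq table (GRCh38.p14) matched 6 of the 10 members by symbol, SPRR1A, SPRR1B, SPRR2A, SPRR3, IVL and CNFN. Each line gives the 250 bases before the transcript start, 5′ to 3′ on the gene's strand, with matches to the AP-1 motif TGANTCA and to TATAAA in capitals.
SPRR1A, chr1:152983831-152984080, plus strand: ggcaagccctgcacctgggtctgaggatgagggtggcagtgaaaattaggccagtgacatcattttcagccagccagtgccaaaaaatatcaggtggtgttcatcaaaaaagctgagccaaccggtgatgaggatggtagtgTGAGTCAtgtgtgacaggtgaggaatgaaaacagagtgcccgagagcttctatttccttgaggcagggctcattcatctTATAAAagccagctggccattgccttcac
SPRR1B, chr1:153030953-153031202, plus strand: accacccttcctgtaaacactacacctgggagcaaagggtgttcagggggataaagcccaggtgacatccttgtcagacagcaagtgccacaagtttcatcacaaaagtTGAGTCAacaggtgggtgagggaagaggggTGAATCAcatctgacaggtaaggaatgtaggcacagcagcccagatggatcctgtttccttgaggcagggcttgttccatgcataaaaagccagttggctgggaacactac
SPRR3, chr1:153001499-153001748, plus strand: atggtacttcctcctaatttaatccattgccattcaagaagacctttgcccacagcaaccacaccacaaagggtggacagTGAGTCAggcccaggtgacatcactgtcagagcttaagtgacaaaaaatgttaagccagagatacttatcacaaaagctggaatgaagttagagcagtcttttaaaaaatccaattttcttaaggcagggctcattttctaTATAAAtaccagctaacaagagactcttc
IVL, chr1:152908296-152908545, plus strand: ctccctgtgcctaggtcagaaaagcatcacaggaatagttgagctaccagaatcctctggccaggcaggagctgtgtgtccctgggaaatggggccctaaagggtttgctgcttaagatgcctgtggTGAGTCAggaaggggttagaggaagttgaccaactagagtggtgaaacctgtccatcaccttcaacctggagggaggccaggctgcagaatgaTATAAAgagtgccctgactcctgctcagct
SPRR2A, chr1:153057513-153057762, minus strand: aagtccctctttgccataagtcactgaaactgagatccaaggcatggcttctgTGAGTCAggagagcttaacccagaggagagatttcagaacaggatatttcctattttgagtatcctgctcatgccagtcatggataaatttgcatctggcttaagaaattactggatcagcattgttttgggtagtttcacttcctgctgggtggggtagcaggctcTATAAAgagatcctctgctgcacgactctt
These coordinates are those of the promoter table and not of the build named for the FPKM values.

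TGANTCA, searched on both strands, was found in 5 of the 6 matched members, and in 6.57% of all 35116 promoters of the same length. The match began 108 bases before the start in SPRR1A, 170 in SPRR3, 123 in IVL and 197 in SPRR2A, and SPRR1B had matches at 141 and 111 bases. CNFN, which lies outside the segment, had none. TATAAA was found in 4 of the 6, in SPRR1A and SPRR3 at 29 bases and in IVL and SPRR2A at 30 bases, against 10.7% of all promoters. AGGAAG, a form of the ETS site, was present in 4 of 6 and in 28.7% of all promoters, and CACCC, bound by KLF proteins, in 5 of 6 and in 54.7%. SPRR2A thus carried the same TGANTCA and TATAAA letters as SPRR3 and IVL, although its level was near 0 as given below. Among 25 other promoters of the segment, S100 genes left out, 9 held TGANTCA and 13 held TATAAA, and each gene with either match was at 0.25 FPKM or less in every library, the highest being SPRR2F. A match is a run of letters and not a measured binding site.

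SPRR1A and SPRR1B, the cornifins, are near copies, and their coding sequences (GENCODE 29) are shown because reads from the shared stretches could be assigned to either. Capitals mark the bases at which they differ.
SPRR1A: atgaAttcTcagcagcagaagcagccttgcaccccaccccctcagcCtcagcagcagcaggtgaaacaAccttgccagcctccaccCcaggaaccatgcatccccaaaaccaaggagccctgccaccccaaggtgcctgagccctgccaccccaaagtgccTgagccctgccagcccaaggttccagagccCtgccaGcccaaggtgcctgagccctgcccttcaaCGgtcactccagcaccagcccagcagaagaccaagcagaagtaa
SPRR1B: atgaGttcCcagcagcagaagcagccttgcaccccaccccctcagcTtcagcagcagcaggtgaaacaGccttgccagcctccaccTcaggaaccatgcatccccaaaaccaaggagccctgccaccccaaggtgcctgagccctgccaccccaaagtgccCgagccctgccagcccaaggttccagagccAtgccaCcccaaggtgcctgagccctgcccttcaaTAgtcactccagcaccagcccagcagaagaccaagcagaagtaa
Over 270 coding bases, stop codon included, they differed at 10, an identity of 96.3%. Of all windows of 50 bases, 11.3% in the SPRR1A transcript and 4.38% in the SPRR1B transcript occurred also, letter for letter, in the other gene. Matches with differing bases, or outside the coding bases of SPRR1A, were not counted, so both shares could be higher. SPRR2A and SPRR2D differed at 4 of 219 coding bases, and 32.7% and 26.8% of their windows occurred in other SPRR2 genes. How the authors' counting split such reads is not given in the sources used here, so the share of each copy is uncertain. SPRR3, IVL, TGM1, PPL and CNFN had no shared window, and 2.25% of EVPL windows also occurred in EVPLL. In GENCODE 29 the SPRR1A entry holds only its 270 coding bases, so its length there is too short and its GC content is that of the coding bases alone.

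Among the SPRR genes, SPRR3, SPRR1B and SPRR1A were nearly silent in control cells and abundant in knockdown-labelled cells, while SPRR2A and SPRR2D were near 0 in all 4 libraries. SPRR3, the esophageal member also called esophagin, was listed at 0 in control input and at 0.05 FPKM in control polyribosome RNA, against 412.53 in knockdown-labelled input and 189.97 in knockdown-labelled polyribosome RNA. It ranked 200th among the 15081 rows above 0 in knockdown-labelled input. SPRR1B was at 0.56 and 0.23 FPKM in control input and polyribosome RNA and at 140.42 and 134.26 in the knockdown-labelled pair, where it ranked 677th and 856th. SPRR1A was at 0.47 and 0.46 FPKM in control and at 31.74 and 42.38 in knockdown-labelled input and polyribosome RNA. For each of these 3 genes both knockdown-labelled libraries were high and both control libraries were under 1 FPKM, so the 2 kinds of cells did not overlap. The share of all rows that separate without overlap, at any level, was not counted, so nothing is read from that lack of overlap. The same holds for EVPL and TGM1 below. The log2(FPKM + 1) difference in input was 8.69 for SPRR3, 6.50 for SPRR1B and 4.48 for SPRR1A, and in polyribosome RNA it was 7.51, 6.78 and 4.89.

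SPRR2A was at 1.21 and 0.55 FPKM in control input and polyribosome RNA and at 0.35 and 1.46 in the knockdown-labelled pair, so the 2 kinds of cells overlapped. SPRR2D was at 0.70, 0.76, 0 and 0.53 FPKM in the same order. How many fragments stand behind levels this low is unknown, and with their shared sequence no direction is given for either gene.

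IVL, the gene of involucrin, the glutamine-rich early scaffold protein, followed the high SPRR genes at a lower level. It was listed at 0 in control input and at 0.09 FPKM in control polyribosome RNA, and was at 17.89 and 11.51 FPKM in knockdown-labelled input and polyribosome RNA, a log2 difference of 4.24 and 3.52. Within knockdown-labelled input the order of levels, per kilobase, was SPRR3, SPRR1B, SPRR1A and IVL, with SPRR3 at 2.94 times SPRR1B and SPRR1B at 4.42 times SPRR1A. The order was the same on polyribosomes, where these ratios were 1.41 and 3.17. Without replicates it cannot be said which neighbours in this order differ beyond their spread. Together these 4 genes held 94.9% of the summed FPKM of the 10 members in knockdown-labelled input and 91.1% on polyribosomes. All 10 summed to 31.76 and 29.33 FPKM in control input and polyribosome RNA, and to 634.93 and 415.11 in the knockdown-labelled pair.

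The scaffold plakins were present in all 4 libraries, with input differences under 2-fold. PPL, periplakin, was at 12.45 and 14.99 FPKM in control input and polyribosome RNA and at 18.49 and 13.01 in the knockdown-labelled pair. The polyribosome value of the knockdown-labelled cells lay between the control values. EVPL, envoplakin, was at 4.33 and 4.54 FPKM in control and at 6.87 and 9.03 in knockdown-labelled input and polyribosome RNA, so both knockdown-labelled values were above both control values, with log2 differences of 0.56 in input and 0.86 in polyribosome RNA. The second of these was 1.03 with libraries scaled to a common upper quartile, 1.14 with the median of all genes centred at 0 and -0.33 with GC content and transcript length removed.

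TGM1, transglutaminase 1, the membrane-anchored enzyme that cross-links the envelope, was low throughout, at 1.37 and 1.59 FPKM in control input and polyribosome RNA and at 0.19 and 0.47 in the knockdown-labelled pair. Both knockdown-labelled values were below both control values. How many fragments stand behind levels this low is unknown, so no direction is given. The log2 differences of TGM1 were -0.99 in input and -0.82 in polyribosome RNA, the latter at -1.51 with GC content and length removed. CNFN, cornifelin, a small envelope protein, was at 10.67 and 6.07 FPKM in control input and polyribosome RNA and at 6.45 and 12.49 in the knockdown-labelled pair. Its values in the 2 kinds of cells overlapped, and its input difference of -0.65 and polyribosome difference of 0.93 had opposite signs.

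**Figure D1:**
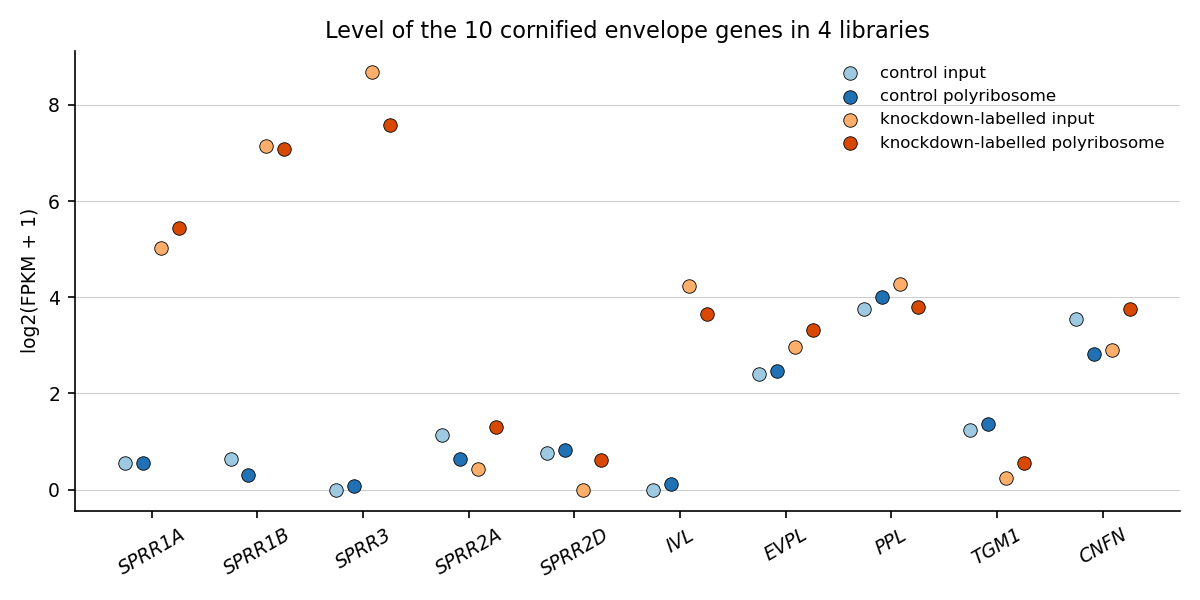
Level of each of the 10 genes as log2(FPKM + 1) on the vertical axis, with 1 point per library. SPRR1A, SPRR1B, SPRR3 and IVL have both knockdown-labelled points far above both control points, from 11.51 to 412.53 FPKM against at most 0.56 FPKM, whereas EVPL, PPL and CNFN are present in all libraries and SPRR2A, SPRR2D and TGM1 stay at 1.59 FPKM or less.

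Over the 10 members, 4 exceeded 2-fold upward in knockdown-labelled input on the log2(FPKM + 1) scale and 0 downward. With 0.1 in place of the added 1, 3 were lower as well, SPRR2A at -1.54, SPRR2D at -3 and TGM1 at -2.34, none of them above 1.59 FPKM in any library. With 0.1 added, the share of all rows was not counted. With 1 added, the background is 9.46% of all 17064 rows higher and 9.84% lower. The same 4 genes were at least 2-fold higher in polyribosome RNA, where the background was 10.3% higher and 22.4% lower, and 0 members were lower. Since the members were chosen with these values known, nothing is read from that difference in shares. An average of 5 FPKM or more was reached by 7 members, and SPRR1A, SPRR1B, SPRR3 and IVL reached it only through the knockdown-labelled libraries, so that they had to differ. Among the 7379 genes at that mean, 13.2% were at least 2-fold higher and 14.4% lower in input, and 16.7% higher and 32.9% lower in polyribosome RNA. Their median polyribosome difference was -0.28, and centring it at 0 made the polyribosome shares 22.8% and 27.0%. With the knockdown-labelled fractions exchanged, as the closing column names have them, these shares were 15.9% and 31.8% in input and 12.7% and 13.97% in polyribosome RNA, and SPRR1A, SPRR1B, SPRR3 and IVL again exceeded 2-fold in both. The median input difference was 0.55 over the 10 members and 0 over all rows, and the median polyribosome difference was 0.89 over the 10 members and -0.04 over all rows.

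The 4 high genes were neighbours on chromosome 1. In the RefSeq order, the segment from S100A10 to S100A1 held 63 protein-coding genes, of which 51 were in the table. All 21 genes of the table between S100A11 and IVL, which include filaggrin (FLG), hornerin (HRNR) and the late cornified envelope (LCE) genes, were at 0.61 FPKM or less in every library. IVL, SPRR4, SPRR1A, SPRR3 and SPRR1B then followed each other, and of these only SPRR4, at 0.20 FPKM or less, was near 0 in the knockdown-labelled libraries. From SPRR2D on, the next 9 genes were at 1.46 FPKM or less. Of the 16 S100 genes at both ends, 9 averaged 5 FPKM or more, while S100A7A, S100A12 and S100A5 were at 0.68 FPKM or less in every library. S100A11 was at 1888.80 FPKM in control input and 4871.41 in knockdown-labelled input, S100A6 at 184.68 and 1126.62, and S100A2 at 299.47 and 14.82. Of those 9, 3 exceeded 2-fold upward in knockdown-labelled input and 2 downward. By a threshold set after the values were seen, 85 rows of the whole table (0.498%) reached 10 FPKM in each knockdown-labelled library and stayed under 1 FPKM in each control library, and 4 of them lay in this segment, namely SPRR1A, SPRR1B, SPRR3 and IVL. The reverse pattern was met by 0.258% of rows and by no member. At 20 FPKM in place of 10, 3 members met it (0.287% of rows, and 0.158% in reverse).

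**Figure D2:**
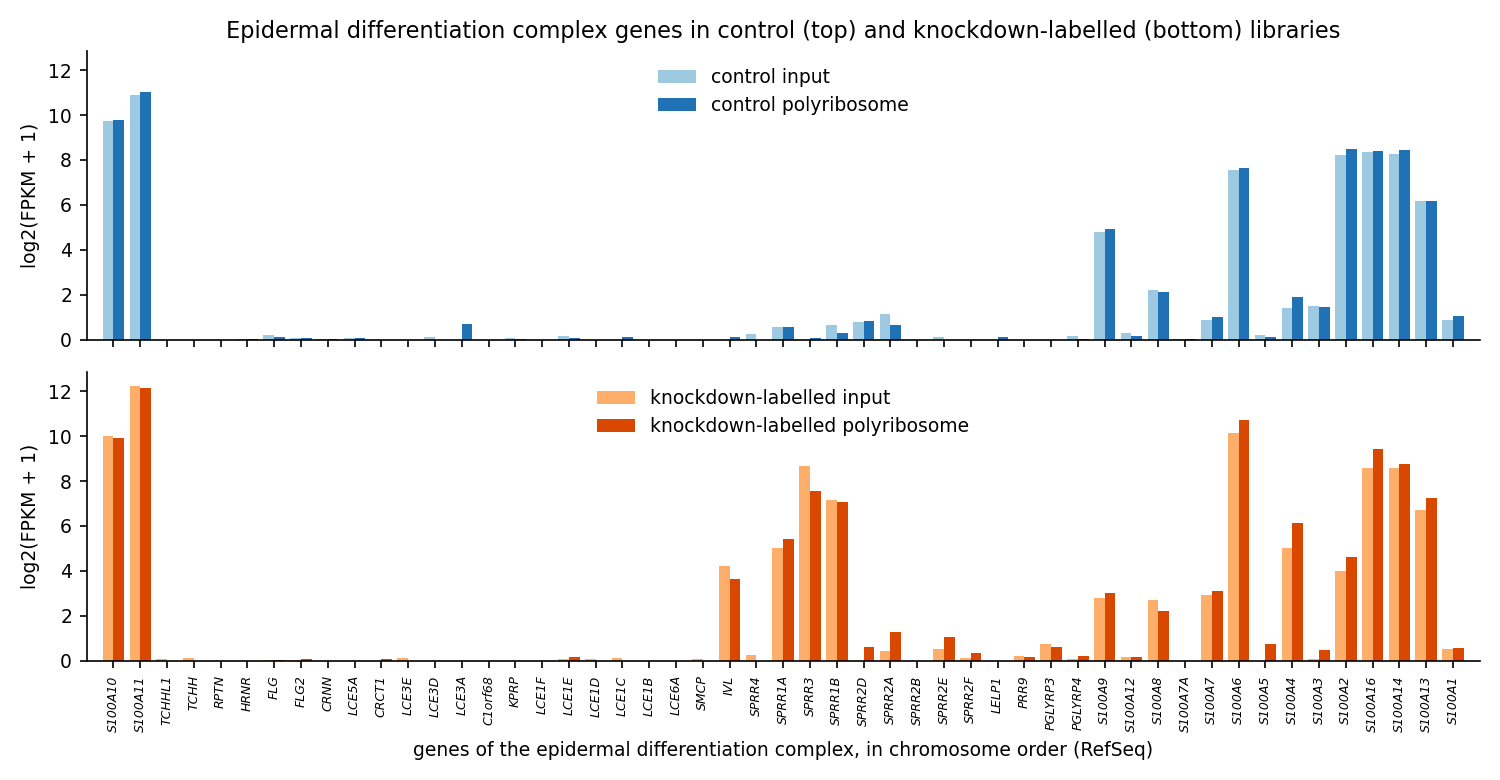
Level as log2(FPKM + 1) of the 51 genes of the epidermal differentiation complex in the table, in chromosome order, with control libraries above and knockdown-labelled libraries below; a pair of bars gives input and polyribosome RNA of each gene. The raised block from IVL to SPRR1B in the lower panel has no counterpart in the upper panel, and the LCE and SPRR2 genes beside it are at 1.46 FPKM or less in both.

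Genes outside the set with the most similar profile were sought by the Euclidean distance of log2(FPKM + 1) over the 4 libraries, among 7360 single-row genes at a mean of at least 5 FPKM. The 3 nearest to SPRR3 were MGST1 at a distance of 0.96, BST2 at 1.28 and IFI27 at 1.34. MGST1, a microsomal glutathione transferase, was at 0 and 0.32 FPKM in control input and polyribosome RNA and at 444.41 and 101.55 in the knockdown-labelled pair, so it too was lower on polyribosomes than in input, whereas BST2, at 262.65 in input and 337.55 on polyribosomes of knockdown-labelled cells, and IFI27, at 303 and 427.6, were higher. SPRR1B lay closest to PADI3 at 0.64, EEF1A2 at 0.73 and DHCR7 at 0.78. SPRR1A lay closest to RAB15 at 0.46, SMIM22 at 0.63 and PLEKHG6 at 0.64. IVL lay closest to TFPI2 at 0.36, CGA at 0.37 and HENMT1 at 0.38. Within the set, SPRR1B and SPRR3 were at a distance of 1.76, SPRR1A and IVL at 2.08 and SPRR1A and SPRR1B at 2.69. Each of these genes had closer neighbours outside the set. With 7360 genes searched there and only the other members inside, nothing is read from that. EVPL (0.11 to TMCO4), PPL (0.16 to HDAC8) and CNFN (0.37 to PHYKPL) each had a nearest gene with FPKM close to their own in all 4 libraries. SPRR2A, SPRR2D and TGM1 average under 5 FPKM, outside the range searched, so no nearest gene is given for them.

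The study compared translation efficiency between knockdown and control, taken here as log2 of polyribosome over input FPKM with 1 added to each. In control cells 0 of the 10 were 2-fold higher or lower (background 0.0352% and 0.779% of all rows, and 0% and 0.759% of the genes averaging 5 FPKM or more). CNFN had the lowest control value, -0.72, with 10.67 FPKM in input and 6.07 on polyribosomes, at the 2.06th percentile of the 7379 genes at a mean of at least 5 FPKM. PPL had the highest, 0.25, and the middle 50% of those genes lay between -0.17 and 0.20. The values of SPRR1A, SPRR1B, SPRR3 and IVL in control cells rest on levels under 1 FPKM and cannot be read as an efficiency.

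In knockdown-labelled cells SPRR3 was lower on polyribosomes than in input, at 189.97 against 412.53 FPKM, a log2 efficiency of -1.11. It was the only member beyond 2-fold, where the background was 4.15% of all rows higher and 21.7% lower, or 8.62% and 28.8% of the genes averaging 5 FPKM or more. IVL was at -0.59 and PPL at -0.48, whereas SPRR1B was at -0.06, EVPL at 0.35, SPRR1A at 0.41 and CNFN at 0.86. The high SPRR genes therefore ranged from -1.11 for SPRR3 to 0.41 for SPRR1A within the same libraries. Across 7344 genes, which are not independent replicates, efficiency in knockdown-labelled cells had a Pearson's r of 0.79 with the GC content of the transcript and -0.27 with its log2 length, while in control cells these were 0.06 and -0.11. GC content was 49.6% in SPRR3, 52.7% in SPRR1B, 58.7% in IVL, 59.5% in PPL, 61.9% in SPRR1A, 62.1% in CNFN and 65.0% in EVPL. SPRR3 had the lowest efficiency of these 7 and, with SPRR1A left aside, the lowest GC content. SPRR1B, the next in GC content, was at -0.06, above IVL and PPL. The part of GC content in these values was not tested. With GC content and length removed the efficiency was -1.32 for SPRR3, -1.41 for IVL, -1.25 for PPL, -0.89 for SPRR1B, -0.89 for CNFN and -0.88 for EVPL, against a median of -0.36 over all genes. The value for SPRR1A, -1.82, used the short length named above. Its GC content of 61.9% is likewise that of the coding bases alone, and is not comparable with the others. With the fractions exchanged each knockdown-labelled efficiency changes sign by construction, and SPRR3 was at 1.11.

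The change in efficiency, knockdown-labelled minus control, was -1.19 for SPRR3, 1.38 for SPRR2A and 1.58 for CNFN, and the other 7 members were within 2-fold. With control levels of 0 and 0.05 FPKM, the value for SPRR3 is in effect its efficiency in knockdown-labelled cells and not a change from a measured one. The background was 6.18% of all rows at least 2-fold higher and 19.6% lower, or 12% and 30.1% of the genes averaging 5 FPKM or more. SPRR2A rests on values of at most 1.46 FPKM, and its change was 0.43 with 5 FPKM added in place of 1. The direction for CNFN depended on the processing, at -0.29 once GC content and length were removed and at -0.13 with the fractions exchanged. For SPRR3 the change was -0.99 with upper-quartile scaling, -1.34 with GC content and length removed and 1.04 with the fractions exchanged. In the authors' deposited table the efficiency ratio of CNFN was 0.706 for control and 1.53 for knockdown-labelled cells. That of SPRR3 was 0.467 for knockdown-labelled cells, and its control ratio of 1.01 is set by the 5 added to levels near 0.

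**Figure D3:**
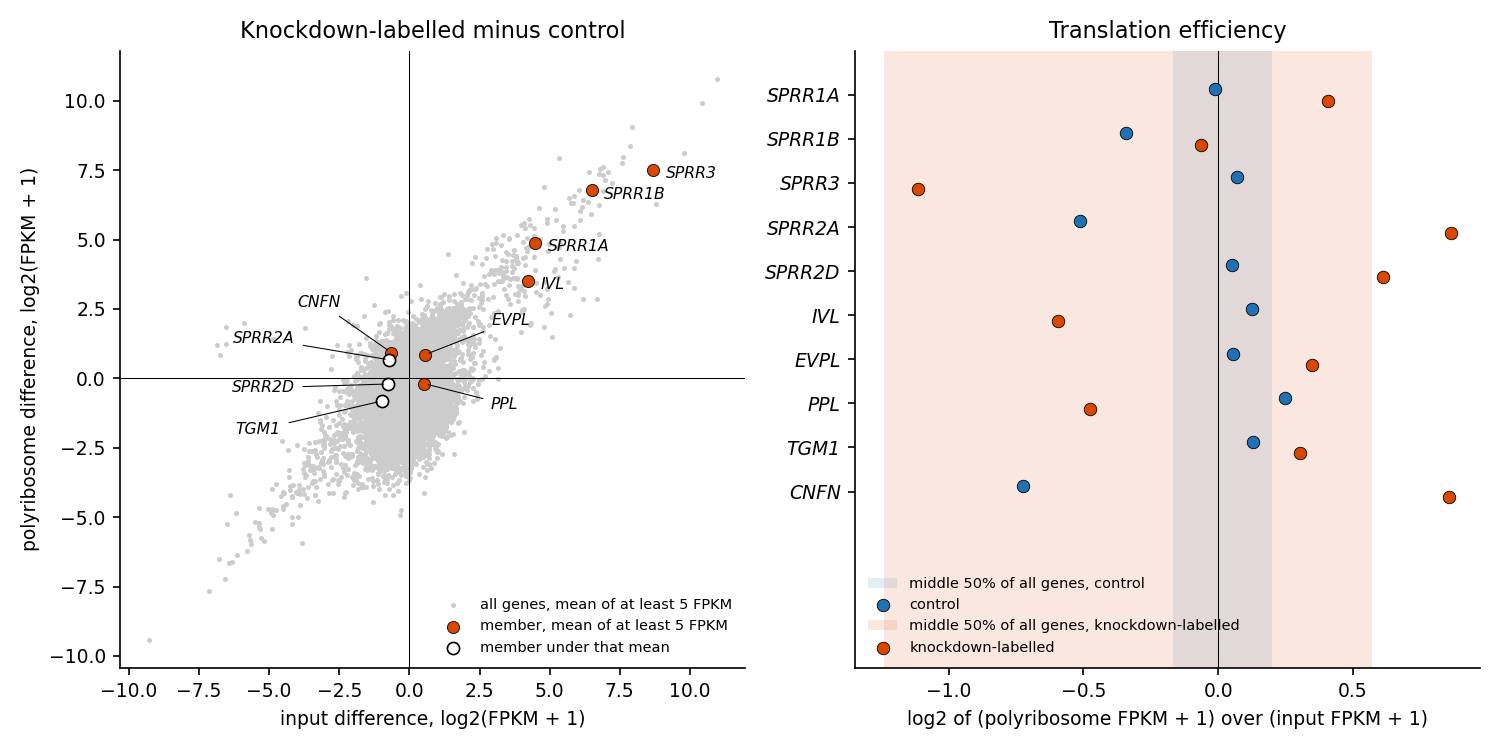
The left panel sets the input difference against the polyribosome difference, knockdown-labelled minus control in log2(FPKM + 1), for all genes at a mean of at least 5 FPKM and the 10 members. The right panel gives each member's log2 polyribosome over input FPKM in control and knockdown-labelled cells, with shading for the middle 50% of all genes; SPRR3 is at -1.11 and CNFN at 0.86 in knockdown-labelled cells, and the shaded range is wider there than in control cells.

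Other genes of squamous differentiation did not move as a block. Their counts in the lists below stand beside 13.2% of all genes higher and 14.4% lower in input at the same mean. Among 38 other SPRR, LCE and filaggrin-type genes, 26 were in the table, 0 reached a mean of 5 FPKM, and 25 were under 1 FPKM in every library, the highest value being 1.10 FPKM for SPRR2E in knockdown-labelled polyribosome RNA. Of 39 other cornification genes, 13 reached that mean, of which 5 exceeded 2-fold upward and 6 downward in knockdown-labelled input, with a median of -0.34 beside 0.01 for all genes. CSTA, cystatin A, an envelope component, was at 64.82 FPKM in control and 0.65 in knockdown-labelled input, and PKP1, the desmosomal plakophilin 1, at 21.21 and 0.06. LYPD3 was at 20.33 and 104.17, and the retinoic acid binding protein gene CRABP2 at 93.19 and 245.24.

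The partners of the members were mixed as well. Of the transglutaminases, only TGM2, the tissue enzyme, reached the mean, and it was at 134.24 FPKM in control and 0.24 in knockdown-labelled input. TGM3 and TGM5, the epidermal enzymes beside TGM1, stand in both of these lists and did not reach it, and TGM5 was the higher, at 0.66 and 3.21 FPKM. Of 4 plakins at the mean, PLEC, PPL and EVPL were within 2-fold in input, and DSP, desmoplakin, was at 12.75 and 3.70 FPKM. Keratins listed as suprabasal included 3 of 7 higher and 1 of 7 lower, which was KRT17, while KRT10 was at a log2 difference of -0.97. KRT13, the keratin of differentiated esophageal epithelium, was at 1.56 FPKM in control and 302.57 in knockdown-labelled input, and KRT17 was at 273.87 and 7.39. Proteases and inhibitors included 5 of 9 higher and 1 of 9 lower, with prostasin (PRSS8) at 8.36 and 132.62 FPKM, cystatin M/E (CST6) at 8.54 and 103.63 and kallikrein 5 (KLK5) at 225.31 and 25.46. Lipid barrier genes included 2 of 6 higher and 0 lower, among them the sulfotransferase gene SULT2B1 at 5.91 and 14.07 FPKM.

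Of 27 transcription factors of squamous differentiation at the mean, 8 exceeded 2-fold upward and 3 downward in knockdown-labelled input, beside 13.2% and 14.4% of all genes, with a median of 0.44. ELF3, an epithelial ETS factor, was at 45.98 FPKM in control and 176.98 in knockdown-labelled input. FOSL1, an AP-1 subunit, was at 237.91 and 57.99, and JUNB, another AP-1 subunit, at 565.06 and 355.27. JUND, a further subunit, was at 106.87 and 145.43 FPKM in input and at 86.37 and 386.8 on polyribosomes. ETS1 was at 17.76 and 1.85 FPKM. SOX2, the squamous lineage factor, was at 0.31 and 39.54 FPKM.

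**Figure D4:**
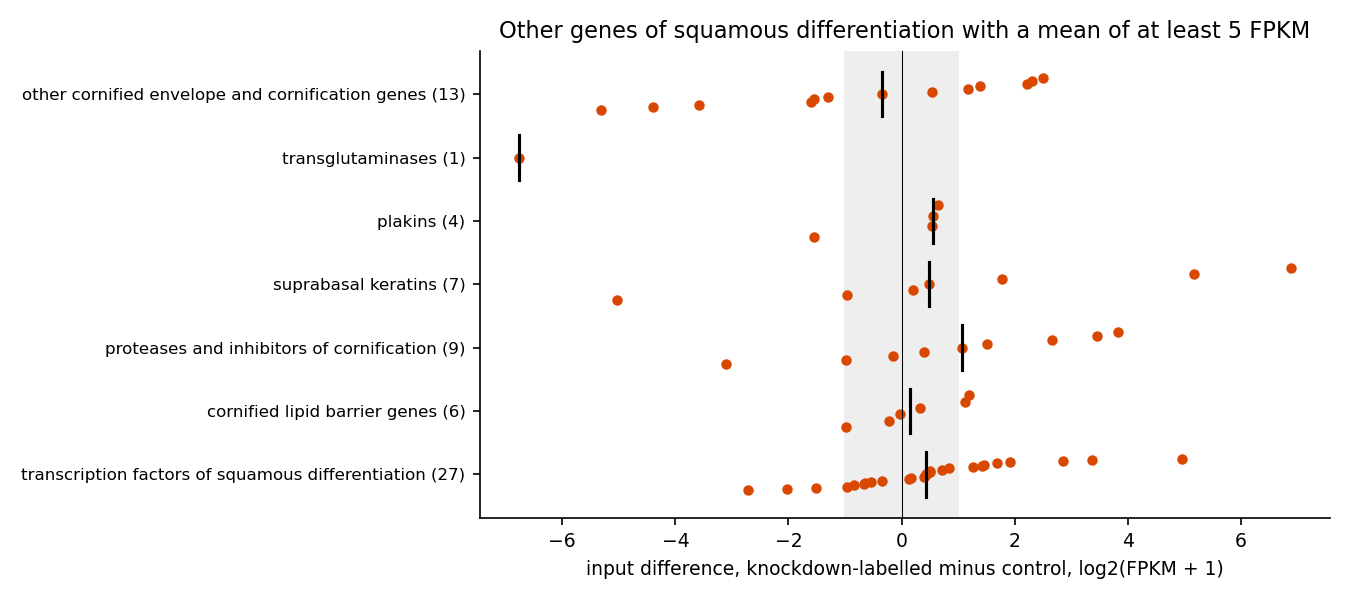
Input difference, knockdown-labelled minus control in log2(FPKM + 1), of single genes in 7 lists of squamous differentiation, at a mean of at least 5 FPKM (number in brackets); black bars are list medians and the grey band spans differences under 2-fold. The single differences run from -6.77 for TGM2 to 6.89 for KRT13. The proteases and inhibitors, the transcription factors and the other cornification genes each have points beyond 2-fold on both sides. So do the keratins, with KRT17 alone on the lower side.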

How the data were processed

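The deposited table holds, for each of the 4 libraries, the authors' FPKM by gene with 2 decimals, and a ratio of polyribosome to input FPKM for each kind of cell. The deposited ratio equals the quotient after 5 is added to each FPKM. TopHat (version not listed) and the builds hg19 and GRCh37 stand in the submitters' processing notes. The sources used here do not give the counting tool, annotation, strand setting or filters. Groups came from sample titles and columns from header names. Of the 17064 rows, 28 name no gene.

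Differences of log2(FPKM + 1) were computed with Python 3.11.15, and a change of at least 2-fold was counted. The added 1 understates changes of low genes. No test was made, since each group is a single library. GC content and length came from the longest coding transcript per gene in GENCODE 29, matched for 7344 of 7379 genes (99.5%), and a quadratic trend across genes was removed as an alternative. The code was tested on simulated data. All 10 members, NSUN6, the 4 highest and 4 lowest input differences and the 3 highest genes of each list, and the 3 nearest genes of each member could be named; S100 genes, FLG, HRNR, SPRR4, SPRR2E, SPRR2F, TGM3 and TGM5 and the markers KRT5, EPCAM, TFF1 and THY1 were named in addition, after their values were seen. Members and lists were chosen with earlier results of these data known. Other pseudocounts, filters, scalings and the exchange of fractions were tried.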

Additional observations from a re-analysis of the deposited data

Results flagged for a closer look

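For 6 members the log2 translation efficiency had opposite signs in control and knockdown-labelled cells, with 1 library per value. The difference between the 2 kinds of cells was not tested. The share of all genes with opposite signs was not counted, so nothing is read from this count. The medians of the genes averaging 5 FPKM or more lay near 0, at 0.03 in control and -0.02 in knockdown-labelled cells. The values in control and then in knockdown-labelled cells were -0.01 and 0.41 for SPRR1A, -0.51 and 0.87 for SPRR2A, 0.07 and -1.11 for SPRR3, 0.12 and -0.59 for IVL, 0.25 and -0.48 for PPL, and -0.72 and 0.86 for CNFN. For SPRR1A, SPRR3 and IVL the control value rests on less than 1 FPKM in both fractions, and for SPRR2A every value is at most 1.46 FPKM. PPL and CNFN were above 5 FPKM in all 4 libraries.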

How the results depend on the processing

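No paired analysis was possible because each group has 1 library, and for the same reason no library could be left out. SPRR1A, SPRR1B, SPRR3 and IVL were at least 2-fold higher and 0 members were at least 2-fold lower in input and in polyribosome RNA under each setting tried among members past the filter, except that EVPL and CNFN joined them in polyribosome RNA under upper-quartile scaling (1.03 and 1.12) and median centring (1.14 and 1.21), and CNFN with a pseudocount of 0.1 (1.03). SPRR1A, SPRR1B, SPRR3 and IVL passed the filter only through the knockdown-labelled libraries, so that they had to differ. With both knockdown-labelled values far above both control values, exchanging the fractions could not change their direction. Across the settings tried, 9.46% to 15.9% of all genes were higher and 9.84% to 31.8% lower in input. In polyribosome RNA 10.3% to 22.8% were higher and 13.97% to 35.1% lower. Among the members under a mean of 5 FPKM, a pseudocount of 0.1 put SPRR2A, SPRR2D and TGM1 beyond 2-fold lower in input (-1.54, -3 and -2.34), TGM1 lower (-1.57) and SPRR2A higher (1.26) in polyribosome RNA. The share of all rows with that pseudocount was not counted. TGM1 was also beyond 2-fold lower in input with median centring (-1.005), and in polyribosome RNA with GC content and length removed (-1.51) or the fractions exchanged (-1.12). Efficiency was less settled. With a pseudocount of 0.1, 1 member was 2-fold lower in control cells (SPRR1B) and 2 had a 2-fold lower change in efficiency. The shares of all genes were 0.962% and 32.3%. In knockdown-labelled cells upper-quartile scaling gave 1 member 2-fold higher and 0 lower, the exchanged fractions also 1 and 0, and removal of GC content and length 4 lower, SPRR1A with its short entry among them. Of all genes, 14.6% were higher and 26.1% lower with upper-quartile scaling, and 28.8% and 8.62% with the fractions exchanged. With GC content and length removed 14.6% of all genes were lower. For the change in efficiency, 2 members were higher with no filter, 0 were lower with upper-quartile scaling or exchanged fractions, and 0 were higher and 5 lower with GC content and length removed. Of all genes, 6.18% were higher with no filter, 26.5% lower with upper-quartile scaling and 6.29% lower with exchanged fractions. Removal of GC content and length left 5.45% of all genes higher and 17.8% lower. With the fractions exchanged SPRR3 was at 1.11 in knockdown-labelled efficiency and at 1.04 in its change, SPRR2A at -0.35 and CNFN at -0.13, and CNFN was at -0.29 with GC content and length removed. The cause was not tested. Of 290 values of single members under other settings, 254 stayed on their side of 2-fold. Depth is unknown, so no interval limits the low values of SPRR2A, SPRR2D and TGM1.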
